A study of Rattus with 108 samples.

Results

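Incised rat skin taken 6 hours after lateral paw incision (LPI, a cut in the paw that stands for acute postsurgical pain) was compared with paw skin of the same model at 0 day. The comparison held 8 of the 108 libraries of the series, 4 at each time, and its members were the columns of the LPI skin count table whose time code stands for 0 day or for 6 hours. The code for 6 hours is the number 1, which names no time point of the labels. The other LPI skin libraries (2 days and 10 days, 4 each) entered the fit only to estimate the spread and for the later levels of the genes described here. A second model, skin/muscle incision and retraction (SMIR, which stands for chronic postsurgical pain), gave 4 skin libraries at 0 day and 4 at 6 hours from other rats and another body site. Both models also gave muscle and dorsal root ganglia (DRG, where the cell bodies of sensory neurons lie, next to the spine). The labels give neither strain, age nor sex, and name no drug or genetic change. What 0 day means, before the cut or just after it, is not said, and no sham-operated or anaesthesia-only group was used here. Rats were perfused with saline before the tissue was taken. The protocol speaks of RNA pooled from several animals while the labels number single animals, and the p-values therefore speak of differences among libraries, each of which may be a rat or a pool.

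Skin is built of an outer layer of keratinocytes, with hair follicles and glands, over a dermis of fibroblasts, vessels, nerve endings and resident immune cells. After a cut, keratinocytes and resident immune cells release chemokines and cytokines, neutrophils enter within hours and monocytes follow, and keratinocytes at the edge start to move and later divide. Inflammatory mediators in the wound also sensitise the endings of pain-sensing neurons, whose cell bodies lie in the DRG. The tables list Ensembl gene IDs alone, and of the 47357 rat genes of the RefSeq reference at hand 0 carried such an ID, so none of these processes could be followed by named genes. The genes are therefore described by their own values, by the tissue they are enriched in, and by what the same genes did in SMIR skin.

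The 8 libraries held between 19080096 and 29720907 counts, with the lowest and the highest of these totals in 0 day library 4 and 6 hour library 5 (libraries are named by the number in their column). In a principal component analysis of the 16 LPI skin libraries, the first component carried 50.7% of the variance and the second 14.9%. The 4 libraries at 6 hours lay between 59.7 and 103.5 on the first component and those at 0 day between −82.6 and −41.6, with 0 day library 1 nearest to the 6 hour libraries. The correlation of log2 CPM (counts scaled to the library's total) ran from 0.954 to 0.973 within 0 day, from 0.960 to 0.973 within 6 hours and from 0.859 to 0.911 between the groups. No pair of libraries of a group agreed within sampling noise, with a chi-square per degree of freedom of at least 15.6. At 6 hours 12895 to 13335 genes reached 1 CPM by library totals, against 13529 to 14092 at 0 day, without overlap, while the number of genes with any count overlapped (17258 to 17856 and 17455 to 18285). The label skin could be checked only by genes enriched in SMIR skin over muscle and DRG, which held 20.2% to 24.7% of the counts at 0 day and 20.8% to 23.0% at 6 hours.

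**Figure D1:**
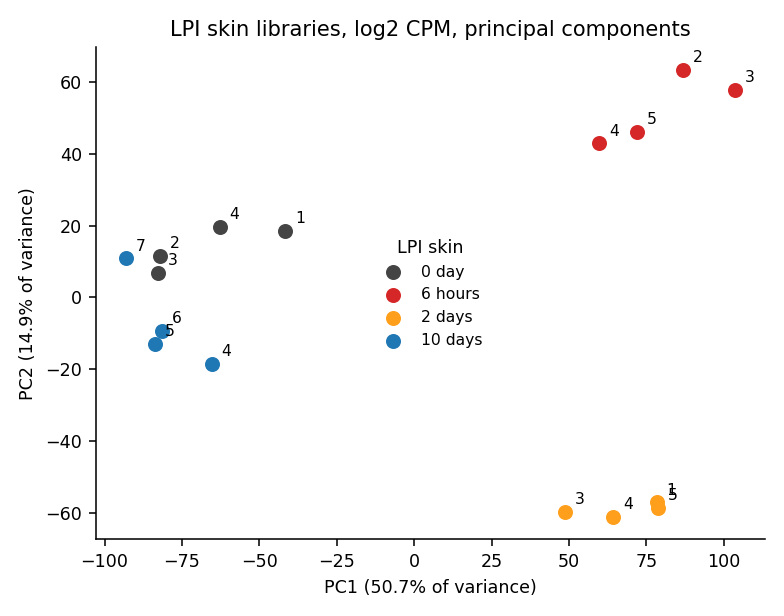
Principal components of the 16 LPI skin libraries, computed on log2 CPM, with each point a library, its colour the time and its number that of its column. The 6 hour libraries lie at 59.7 or above on the first axis (50.7% of the variance) and the 0 day libraries at −41.6 or below, and the 2 day libraries part from the 6 hour libraries on the second axis (14.9%).

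Most genes tested had changed by 6 hours. Of 16077 genes tested, 8797 (54.7%) passed edgeR's quasi-likelihood test with a Benjamini-Hochberg adjusted p under 0.05. Of these, 4371 (27.2%) were higher and 4426 (27.5%) were lower than at 0 day. The median log2 change was 0.86 among the higher and −1.10 among the lower genes, with a median SE of 0.18 over all called genes. The even split rests on the scaling for composition (TMM): with library totals alone, an alternative chosen after the data were seen, 3177 genes were higher and 5797 lower, and the median log2 change of all genes tested moved from −0.04 to −0.25. The scaling factors of the 6 hour libraries, 0.863 to 0.911, lay below those of 0 day, 0.984 to 1.11. Leaving out 0 day library 1, which lay nearest to the other group, left 8304 genes called. Because the rats or pools of the 2 times differ and no number pairs them, time cannot be told apart from any other difference between the 2 sets of animals.

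The genes with large rises ended at higher levels than those from which the genes with large falls had started. At least 4-fold, 667 genes (4.15%) were higher and 858 (5.34%) lower, and at least 16-fold 235 (1.46%) were higher and 184 (1.14%) lower. Among genes changed at least 4-fold, 120 of the higher genes reached a mean of 100 CPM at 6 hours, while 15 of the lower genes had reached it at 0 day. Their median CPM in the group where they were high was 14.0 for the higher and 2.95 for the lower genes. At 0 day the higher genes stood at a median of 1.28 CPM, below the 2.95 CPM of the lower genes. The large rises thus did not start from more abundant genes. Sorted by their level in SMIR skin at 0 day, which comes from other rats, the 2123 genes at 100 CPM or more were higher in 31.2% and lower in 30.9% of cases. The 4229 genes at 1 to 10 CPM there were higher in 18.6% and lower in 26.4%.

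**Figure D2:**
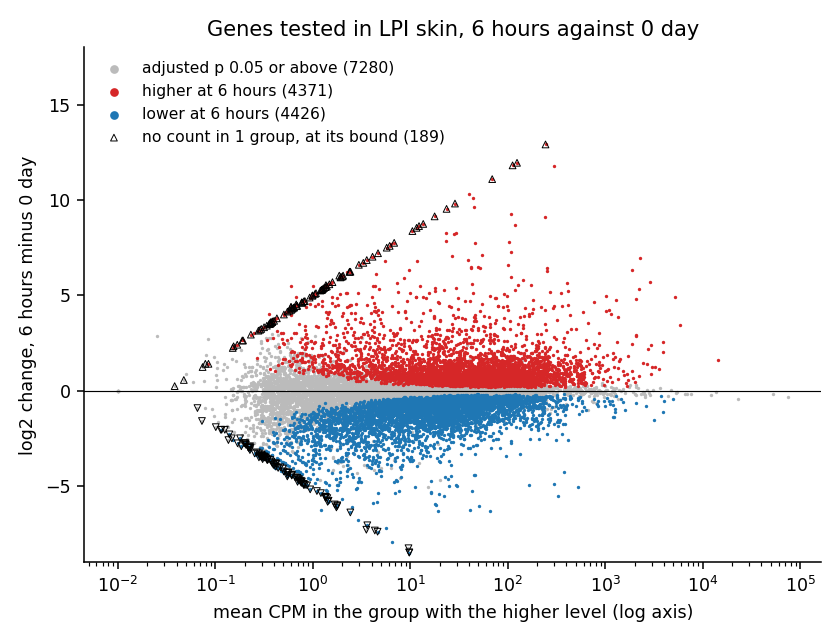
Log2 change from 0 day to 6 hours (vertical axis) of the 16077 genes tested in LPI skin against their mean CPM in the group with the higher level (log axis), each point a gene. Higher genes (4371, red) reach past 4-fold at all levels, while lower genes (4426, blue) changed at least 4-fold lie mostly below 10 CPM, and triangles mark genes without a count in 1 of the groups, drawn at the bound that 3 counts over that group allow.

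The list of the most abundant genes was partly replaced. Of the 100 genes with the highest mean CPM at 6 hours, 66 were also among the 100 highest at 0 day. All 34 that had entered were called higher, and together they went from 1.30% to 6.38% of the counts. Of the 34 that had left, 16 were called lower and 1 higher, and together they went from 4.10% to 2.61%. The 10 most abundant genes of 0 day held 23.0%, 21.6%, 16.7% and 21.8% of the counts in 0 day libraries 1 to 4, and 15.0%, 15.9%, 17.0% and 17.7% in 6 hour libraries 2 to 5. The groups overlapped, because 0 day library 3 lay within the range of 6 hours. A share can fall because other genes take up more of the counts, so it does not by itself show less RNA of these genes.

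The genes higher at least 4-fold that were not muscle-enriched, 643 in number, carried a visible part of the skin transcriptome at 6 hours. They held 0.997% to 1.27% of the counts at 0 day and 7.54% to 9.58% at 6 hours, 8.42% to 13.5% at 2 days and 1.31% to 1.55% at 10 days. The 235 genes higher at least 16-fold went from 0.0809%, 0.113%, 0.103% and 0.154% in 0 day libraries 1 to 4 to 3.37%, 3.61%, 3.32% and 2.78% in 6 hour libraries 2 to 5. Even the lowest of the 6 hour libraries, number 5, was far above every 0 day library, as the choice of these genes by their rise implies. Their median log2 change was 5.52 at 6 hours, or 4.91 with the 78 genes that had no count at 0 day held at the bound of 3 counts over the group. Against the same 0 day libraries their median was 5.56 at 2 days and 1.48 at 10 days.

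The 858 genes lower at least 4-fold held 0.744%, 1.40%, 1.36% and 0.910% of the counts in 0 day libraries 1 to 4 and 0.116%, 0.0931%, 0.194% and 0.143% in 6 hour libraries 2 to 5. Their median log2 change was −2.84 at 6 hours, −1.73 at 2 days and 0.36 at 10 days, each against the same 0 day libraries. Among those that reached 10 CPM at 0 day, the median SD of log2 CPM between the 0 day libraries was 0.384, beside 0.146 for all genes tested that reached 10 CPM at either time, whose levels were not matched.

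Single genes show both ends of the response. ENSRNOG00000057443, the gene with the largest fitted rise among those with a mean of at least 10 CPM and no overlap, had no count in any of the 4 libraries at 0 day. At 6 hours it reached 190.5, 330.0, 383.7 and 70.5 CPM in libraries 2 to 5, a mean of 244 ± 141 (SD, n = 4). Against the floor of 3 counts over the 0 day group, 0.0311 CPM, it was at least 7694-fold higher (edgeR quasi-likelihood adjusted p = 1.97e-06). It stood at 460.3 to 937.4 CPM at 2 days, and at 10 days 1 of the 4 libraries held 11 counts and the others none. In SMIR skin it also had no count at 0 day and reached 17.3 ± 5.65 CPM at 6 hours (SD, n = 4), which is at least 673-fold higher (edgeR quasi-likelihood adjusted p = 3.94e-05). Whether its change differed between the models could not be fitted, since it was at 0 in both 0 day groups.

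ENSRNOG00000028043 behaved alike in LPI skin, with no count at 0 day and 82.3, 123.8, 241.6 and 49.5 CPM in 6 hour libraries 2 to 5. Its mean of 124 ± 83.9 CPM (SD, n = 4) was at least 3951-fold above the same floor (edgeR quasi-likelihood adjusted p = 4.11e-06). Libraries 3 and 4 of 6 hours were the highest and library 5 the lowest for both of these genes. At 2 days it stood at 318.6 to 629.5 CPM and at 10 days at 0.0949 to 1.67 CPM. In SMIR skin it reached 14.7 to 22.0 CPM at 6 hours, a log2 change of 8.47. The fitted difference of the changes between the models, −6.75 ± 3.44 (SE), did not pass (edgeR quasi-likelihood adjusted p = 0.128), and it rests on a group at 0. With 0 day of LPI skin held at the floor the difference was −3.47, with no test.

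ENSRNOG00000027478 had the largest fitted fall under the same rule. It stood at 13.5, 50.1, 11.2 and 14.2 CPM in 0 day libraries 1 to 4 and at 0.114, 0, 1.29 and 0.236 CPM in 6 hour libraries 2 to 5. All 6 hour libraries lay below all 0 day libraries, library 2 of 0 day stood above the other 3 of its group, and the 0 in 6 hour library 3 allows up to 0.115 CPM. The log2 change was −5.55 ± 1.07 (SE, 4 against 4 libraries; edgeR quasi-likelihood adjusted p = 5.91e-04). It was −7.28 without 6 hour library 4 and −4.79 without 0 day library 2, each a move of more than 1.5-fold. In SMIR skin the same gene went from 0.736–2.53 CPM to 828–1134 CPM at 6 hours, and the changes differed by a log2 value of 15.34 (edgeR quasi-likelihood adjusted p = 8.16e-06). The SMIR skin libraries of 32 days ranged from 0.801 to 402.9 CPM for this gene. At 2 days in LPI skin it was still low, with 0.124 to 1.57 CPM, and at 10 days it stood at 15.2 to 138.3 CPM.

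ENSRNOG00000053812 stood at 2.59, 33.0, 17.5 and 12.2 CPM in 0 day libraries 1 to 4 and at 0.494, 0, 0.887 and 0 CPM in 6 hour libraries 2 to 5. Its log2 change was −5.34 ± 1.02 (SE; edgeR quasi-likelihood adjusted p = 0.0011), −6.42 without 6 hour library 4 and −4.74 without 0 day library 2. Its level is uncertain, because another gene ID carried nearly the same counts in every LPI skin library, with a summed difference of 0.264%, and reads may have been shared between them. It had no count at 2 days and 21.3 to 78.4 CPM at 10 days. In SMIR skin its log2 change at 6 hours was 1.83, and the changes differed by 7.14 (edgeR quasi-likelihood adjusted p = 2.38e-05).

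Some genes were seen at only 1 of the times. Of the 32623 genes listed, 41 had no count in any 0 day library and at least 10 counts in every 6 hour library. There were 14 genes of the reverse kind. The 0 day libraries held 19080096 to 29386121 counts and the 6 hour libraries 26147853 to 29720907. Whether depth took part in the difference between 41 and 14 was not tested. Of the 41, 31 had a count in all 4 LPI skin libraries at 2 days, and 11 had none in any of the 4 at 10 days. In SMIR skin, where the libraries are separate, 17 of the 41 had no count in any 0 day library and 26 had a count in all 4 libraries at 6 hours. Of the 14 reverse genes, all 14 had a count in at least 1 SMIR skin library at 0 day and 3 had a count in all 4 at 6 hours. For these counts in SMIR skin no share over all genes was computed. By the test in SMIR skin, 23 of the 32 tested among the 41 (71.9%) were higher and 0 lower. Among the 14 reverse genes 1 was higher and 8 (57.1%) were lower there. Over all genes tested in both skins, 32.6% were higher and 31.0% lower in SMIR skin. The 41 genes together reached 0.0573%, 0.0845%, 0.107% and 0.0315% of the counts in 6 hour libraries 2 to 5.

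Genes were also grouped by the tissue in which they are enriched, without using any LPI skin library. A gene belonged to a group if its median level at 0 day was at least 5 CPM in that tissue (SMIR skin, or muscle or DRG of both models) and at least 8 times that of each other tissue, after adding 0.1 CPM. These groups have no gene names, so they stand for tissues and not for cell types, and in whole tissue fewer cells of a type and less RNA per cell cannot be told apart. Skin-enriched genes were lower more often than higher: of 595 tested, 117 (19.7%) were higher and 258 (43.4%) lower, beside 27.2% and 27.5% of all genes tested. Their median log2 change was −0.52, beside −0.04 for all genes. At least 2-fold, 168 of the 595 were lower and 72 higher, beside 15% and 11.3% of all genes tested. With library totals alone, 99 skin-enriched genes were called higher and 310 lower at any size of change. The counts were alike at each level of the gene in SMIR skin: 46.9% were lower among those at 100 CPM or more and 40.6% among those at 5 to 10 CPM.

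The summed share of the skin-enriched genes overlapped between the times. It was 22.8% ± 1.87 at 0 day and 21.6% ± 0.946 at 6 hours (SD, n = 4 each; exact permutation test, two-sided, p = 0.343, the same after adjustment over 3 groups). This test of the shares was added after the data were seen. The 258 lower genes had gone from 4.06–4.48% to 2.00–2.37% of the counts, and the 117 higher genes from 2.54–2.83% to 7.23–8.54%, and the 237 others went from 13.2–17.6% to 10.7–13.1%. A set of 33 skin-enriched genes higher at least 4-fold accounted for much of the rise, with 0.334%, 0.377%, 0.371% and 0.460% in 0 day libraries 1 to 4 and 3.62%, 3.86%, 3.13% and 3.20% in 6 hour libraries 2 to 5. They held 4.21% to 8.32% at 2 days and 0.410% to 0.484% at 10 days. In SMIR skin 24 of these 33 genes were higher and 2 lower, and together they went from 0.332–0.475% to 1.02–1.35% at 6 hours. Of all 612 skin-enriched genes, 25.5% were higher and 47.1% lower in SMIR skin, beside 32.6% and 31.0% of all genes. The group was chosen by a high level in the same SMIR skin libraries at 0 day. Falls of its genes in SMIR skin are therefore not independent of that choice. The 55 skin-enriched genes lower at least 4-fold in LPI skin fell from 0.171–0.349% to 0.0161–0.0488% there, and in SMIR skin 43 of the 55 were also lower, 8 were higher, and the median log2 change was −2.24. Their summed share in SMIR skin nevertheless went from 0.590–0.614% to 1.94–2.34%, since 3 genes held 92.6% of it at 6 hours.

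DRG-enriched genes, which include genes of neurons and glia by the nature of the tissue, were also lower more often than higher. Of 439 tested among 886, 63 (14.4%) were higher and 147 (33.5%) lower, beside 27.2% and 27.5% of all genes tested, with a median log2 change of −0.77. Counted at any size of change, fewer were thus higher than among all genes, while the share of lower genes was not far from that of all genes. At least 2-fold, 52 of the 439 were higher and 133 lower, beside 11.3% and 15% of all genes tested. At that size it was the lower genes that departed from all genes. Most of the DRG-enriched genes tested were low in skin, since 74 of the 439 reached 10 CPM at either time. Of all genes at 1 to 10 CPM in LPI skin at 0 day, 19.1% were higher and 32.2% lower. Below 1 CPM these were 20.1% and 11.8%. The comparison with all genes was not matched for level. Their summed share moved the other way, from 0.588% ± 0.0311 to 0.751% ± 0.0354 (SD, n = 4 each), and the groups did not overlap (exact permutation test, two-sided, p = 0.0286, the smallest that 4 against 4 can give, 0.0429 adjusted over 3 groups). The 63 higher genes went from 0.161–0.183% to 0.370–0.455% of the counts and the 147 lower genes from 0.0822–0.107% to 0.0259–0.0346%. The rise in the share depended on how strictly the group was drawn: at 16 times the other tissues it was 0.0113 percentage points (exact permutation p = 0.6). With the gene-length trend as a covariate 96 were lower in place of 147, and with library totals alone 56 were higher and 170 lower.

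Muscle-enriched genes were few and low in skin. Of 89 tested among 164, 30 (33.7%) were higher and 10 (11.2%) lower, beside 27.2% and 27.5% of all genes tested, with a median log2 change of 1.13. A gene low at 0 day can enter the test through its level at 6 hours, and with no filter on low counts 24 of 156 were higher and 10 lower. Their summed share was 0.0218%, 0.0273%, 0.0297% and 0.0245% in 0 day libraries 1 to 4 and 0.0664%, 0.0344%, 0.0617% and 0.0320% in 6 hour libraries 2 to 5. All 6 hour libraries lay above all 0 day libraries, and libraries 2 and 4 stood well above libraries 3 and 5 of 6 hours (exact permutation test, two-sided, p = 0.0286, 0.0429 adjusted over 3 groups). In muscle itself the median share at 0 day was 5.88% in LPI (0.145% to 15.4%) and 26.7% in SMIR (25.4% to 28.6%). The LPI muscle libraries, which helped to define this group, thus differed widely. The highest of the 30 genes had a mean of 196 CPM at 6 hours, and 6 of them reached 10 CPM. The count of 30 was 18 without 0 day library 1, 19 without 0 day library 2, 18 without 0 day library 3, 18 without 6 hour library 2 and 18 without 6 hour library 4, and 11 with the gene-length trend as a covariate. Of the 667 genes higher at least 4-fold, 24 were muscle-enriched and 33 skin-enriched, beside 89 and 595 of all 16077 genes tested. Whether traces of muscle in the dissected skin took part in the rises was not tested.

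**Figure D3:**
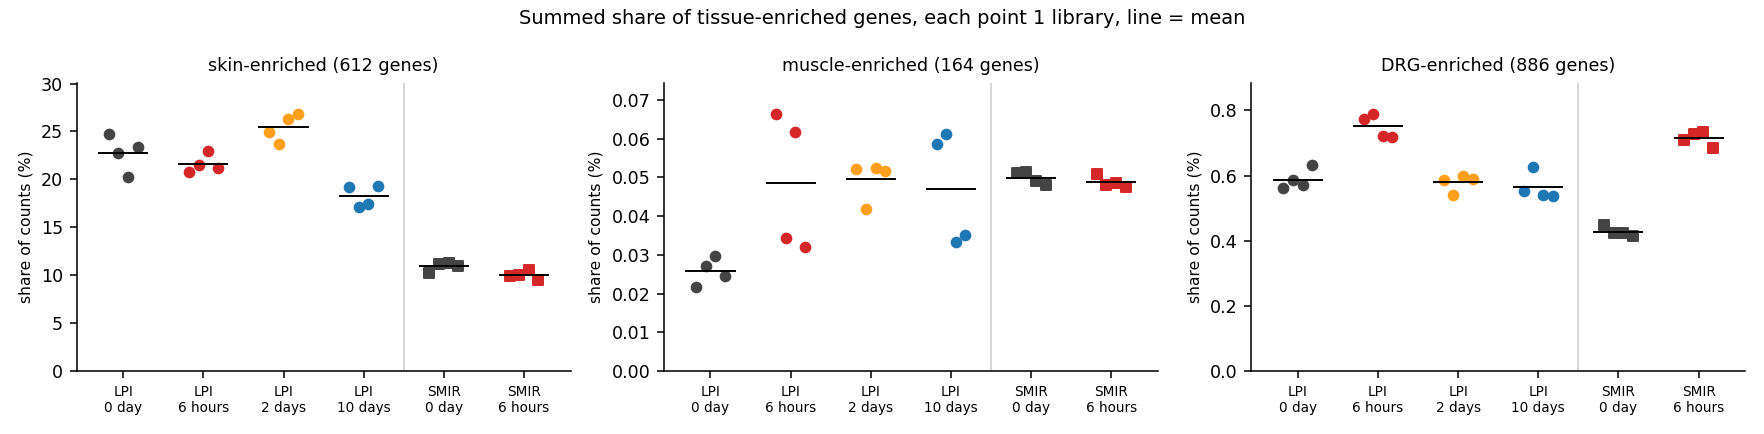
Summed share of counts (vertical axes, percent) of genes enriched in skin, muscle or DRG in LPI skin at 4 times and in SMIR skin at 0 day and 6 hours, with each point a library and each line the group's mean. The skin-enriched share overlaps between 0 day (20.2% to 24.7%) and 6 hours (20.8% to 23.0%), while the DRG-enriched share is higher in every 6 hour library (0.720% to 0.789%) than in every 0 day library (0.561% to 0.632%).

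Gene length moved with the groups too. The slope of log2 CPM on log2 gene length was 0.394 to 0.431 in the 0 day libraries and 0.302 to 0.348 in the 6 hour libraries, without overlap. Among the 4019 longest genes 26.0% were higher and 34.2% lower, and among the 4020 shortest 23.5% and 19.5%. With each library's slope as a covariate 7182 genes passed, 51.8% of them higher, beside 8797 and 49.7% without it. Since the slopes of the groups do not overlap, the trend and the time after incision cannot be fully told apart.

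The same genes were then read in SMIR skin, whose libraries share nothing with those of LPI. In SMIR skin 15926 of the genes tested in LPI skin could also be tested, and 32.6% of those were higher and 31.0% lower at 6 hours. In its own fit, SMIR skin had 10673 of 17317 genes called (61.6%). Of genes higher in LPI skin by less than 2-fold, 65.6% were higher in SMIR skin and 7.06% lower. In the class higher 2 to 4-fold these were 63.3% and 12.5%, and in the class higher 4 to 16-fold 46.2% and 12.1%, with a median log2 change of 0.68 in the latter. Of genes higher at least 16-fold in LPI skin, 59.3% were higher in SMIR skin and 2.39% lower, with a median log2 change of 2.12 there. Genes lower 4 to 16-fold in LPI skin were lower in SMIR skin in 61.8% and higher in 17.1% of cases. The class with the deepest falls stood apart. Of the genes lower at least 16-fold in LPI skin, 44.1% were higher and 30.5% lower in SMIR skin, and their median log2 change there was 1.32. Of the 184 genes of that class, 85 had no count in any 6 hour library of LPI skin, and 80 (43.5%) showed no overlap between 0 day and 6 hours in CPM. Over all genes tested 33% lay lower without overlap by library totals, or 24.5% with TMM scaling, under which the classes were not recomputed. Of the class lower 4 to 16-fold 86.8% showed none by library totals.

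**Figure D4:**
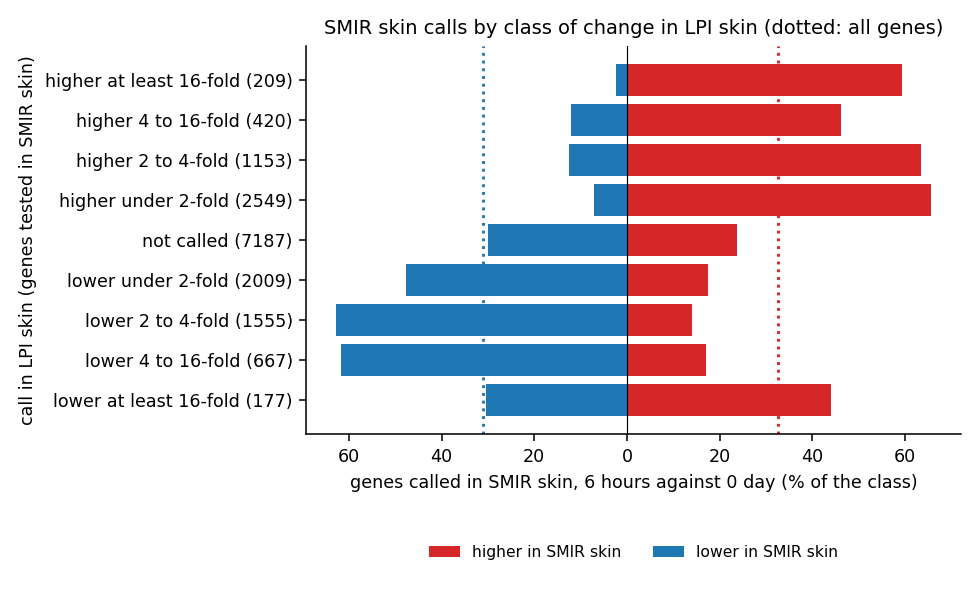
Percent of genes called higher (red, to the right) or lower (blue, to the left) in SMIR skin at 6 hours against 0 day, for each class of change of the same genes in LPI skin, with the number of genes tested in SMIR skin in brackets and dotted lines at the percent over all genes (32.6% higher, 31.0% lower). In the 4 classes higher in LPI skin 46.2% to 65.6% were higher and 2.39% to 12.5% lower in SMIR skin, and of the class lower at least 16-fold 44.1% were higher there.

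Read from the side of SMIR, falls and rises gave different counts. Of 1511 genes lower at least 4-fold in SMIR skin and tested in LPI skin, 778 (51.5%) were lower and 44 (2.91%) higher in LPI skin, with a median log2 change of −1.24. Of 618 genes higher at least 4-fold in SMIR skin, 237 (38.3%) were higher and 192 (31.1%) lower in LPI skin, with a median of −0.09, beside 27.2% and 27.5% of all genes tested. The change itself differed between the models for 6662 of 17584 genes tested (37.9%), by the test of the difference of the changes in edgeR's quasi-likelihood fit of both skins. Of these, 3132 (17.8%) had the higher change in SMIR skin and 3530 (20.1%) in LPI skin. This balance turned with the scaling: with library totals alone 3696 had the higher change in SMIR and 2819 in LPI skin, and the median difference over all genes moved from −0.07 to 0.05. Of the 15926 genes tested in both skins, some were called in both models and in that test, with opposite directions. Of these, 380 were higher in LPI and lower in SMIR skin, and 763 were lower in LPI and higher in SMIR skin. These counts were not recomputed with library totals alone. Model, body site and rats go together in this comparison and cannot be told apart.

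The genes changed at least 4-fold in both skins formed 4 sets, whose levels show where the responses met and where they parted. In the first, 165 genes rose in both: they went from 0.351–0.493% to 3.61–4.74% of the counts in LPI skin and from 0.309–0.434% to 1.26–2.85% in SMIR skin. The 165 genes held 4.46% to 7.25% at 2 days and 0.443% to 0.539% at 10 days in LPI skin. In the second, 308 genes fell in both, from 0.298–0.484% to 0.0364–0.0745% in LPI skin and from 1.35–1.58% to 0.130–0.230% in SMIR skin. Of these 308, 31 were skin-enriched and 26 DRG-enriched, and 249 belonged to no tissue group. Of all 16077 genes tested, 595 were skin-enriched and 439 DRG-enriched.

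In the third set, 144 genes fell in LPI skin and rose in SMIR skin, with the difference called. They held 0.0369%, 0.563%, 0.349% and 0.206% of the counts in 0 day libraries 1 to 4 of LPI skin and 0.00732%, 0.00592%, 0.0296% and 0.00687% in 6 hour libraries 2 to 5. The groups did not overlap, but 0 day library 1 and 6 hour library 4 lay close to each other. At 2 days they held 0.0115% to 0.0165% and at 10 days 0.287% to 1.38%. In SMIR skin the same 144 genes rose from 0.0274–0.0992% at 0 day to 4.94–6.27% at 6 hours, a larger share than the 165 genes that rose in both models held there. At later times of SMIR skin, 4 libraries each, the 144 genes held 0.323% to 2.28% at 10 days and 0.0256% to 3.60% at 32 days. Their share thus differed widely between SMIR skin libraries of the same time. Of the 144, 6 were skin-enriched, 1 was muscle-enriched, 13 were DRG-enriched and 124 belonged to no tissue group. Over all 16077 genes tested, 595 were skin-enriched, 89 muscle-enriched and 439 DRG-enriched. In CPM, 51 of the 144 (35.4%) showed no overlap between 0 day and 6 hours of LPI skin. Over all genes tested 33% lay lower without overlap by library totals, or 24.5% with TMM scaling, under which the sets were not recomputed. Of the 308 genes that fell in both models, however, 89.6% showed none by library totals. The 144 genes thus parted the 2 times of LPI skin less cleanly than the 308. Among the 38 of them that reached 10 CPM, the median SD of log2 CPM was 2.60 between the 0 day libraries, beside 0.146 for all genes tested at that level. ENSRNOG00000027478 belonged to this set. Fewer of the 144 passed in LPI skin under other settings: 60 with the gene-length trend as a covariate, 106 with a replicate block, and 73 of the 93 tested when 0 day and 6 hours were fitted alone. The fourth set, higher in LPI and lower in SMIR skin, held 16 genes, which went from 0.00120–0.00158% to 0.00526–0.0118% in LPI skin and from 0.0105–0.0160% to 0.00140–0.00300% in SMIR skin.

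**Figure D5:**
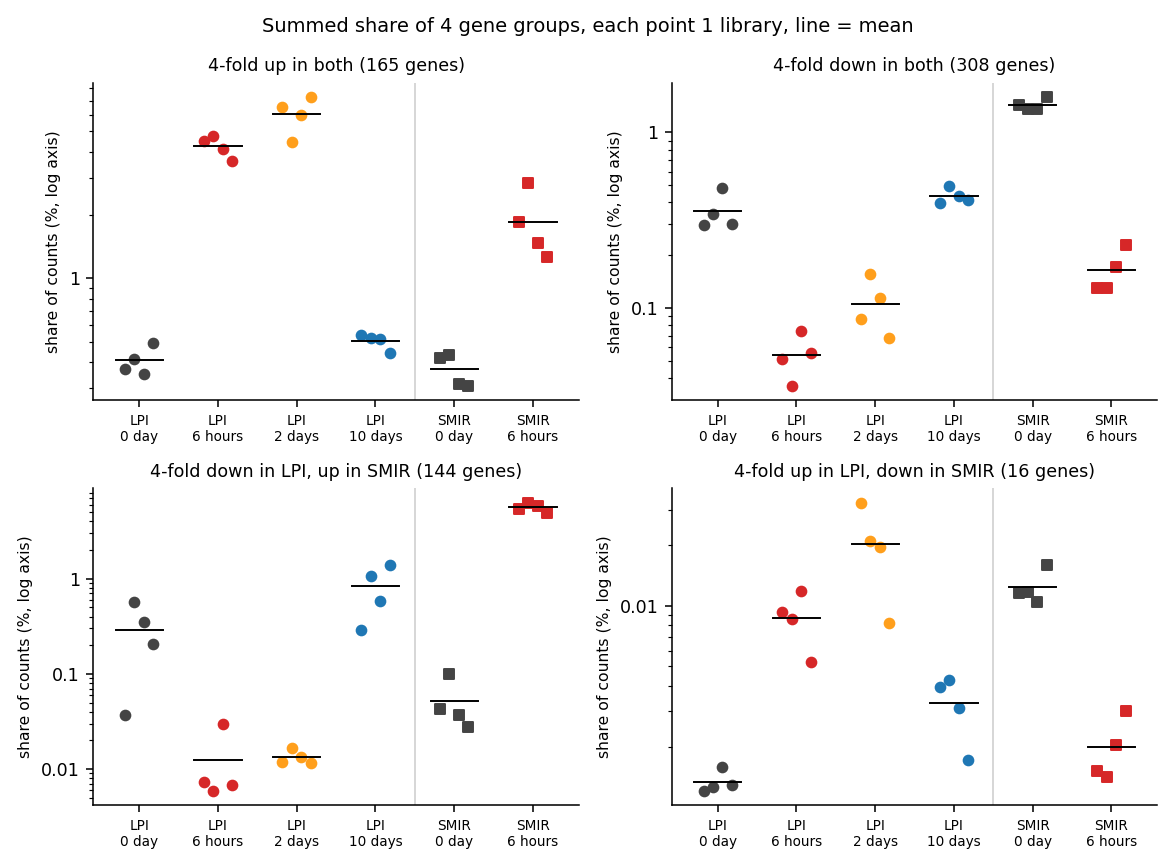
Summed share of counts (log axes, percent) of 4 gene sets changed at least 4-fold at 6 hours in both skins, chosen by these changes, in LPI skin at 4 times (circles) and SMIR skin at 0 day and 6 hours (squares), with each point a library and each line the group's mean. The 144 genes lower in LPI and higher in SMIR skin reach 4.94% to 6.27% of the counts in SMIR skin at 6 hours, while in LPI skin they range from 0.0369% to 0.563% at 0 day and stay at or below 0.0296% at 6 hours.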

How the data were processed

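The libraries were strand-specific (TruSeq) and were read on an Illumina sequencer, per the labels' protocols. The submitters' processing notes list FastQC (0.11.2), STAR and StringTie, and 2 builds, rn6 and hg38, with no role for either. The sources used here do not say how reads were counted. The authors deposited raw read counts per gene, which were tested as deposited, and FPKM values, which the authors deposited beside them and which served only to derive gene lengths. Columns were assigned to groups, not to single samples. The numbers shared by both groups do not pair libraries: same-numbered libraries deviated from their group means with r = −0.09, −0.12 and −0.01.

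All 16 LPI skin libraries were fitted with edgeR 4.0.16 in R 4.3.3 (TMM, filterByExpr, robust quasi-likelihood, two-sided, Benjamini-Hochberg adjusted p under 0.05). SMIR skin and both skins together were fitted likewise, and DESeq2 1.42.0 was an alternative. On simulated data for the LPI comparison (15785 genes, 100 changed 2-fold and 100 changed 4-fold) 53 and 79 were recovered, and 10 unchanged genes were called. For the difference between models (17331 genes) these were 45, 73 and 9. A far smaller part of the genes was changed there than the 54.7% and 37.9% called in the real comparisons. Since the adjusted p depends on that part, these rates do not carry over to them.

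The members, gene lists and sets were chosen with earlier results of these data known. The 26 pathway and 21 marker lists written for this work need gene names and could not be applied. Tissue-enriched and response sets took their place after the data were seen. Single genes were the 2 largest rises and 2 largest falls by log2 change among called genes with a mean of at least 10 CPM in the higher group and no overlap in CPM, since IDs without names allow no more. Genes with no count in a group were compared with a floor of 3 counts over that group, which covers counting error only, as reads carry no molecular identifiers.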

Additional observations from a re-analysis of the deposited data

Results flagged for a closer look

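A single library stood apart from the other 3 of its group in 3 of 50 groups of 4 values examined, where chance gives about 1 in 20. The level of ENSRNOG00000027478 was 50.1 CPM in 0 day library 2, above 11.2 to 14.2 CPM in the others. The share of the genes lower at least 16-fold was 0.0209% in 6 hour library 4, against 0.00174% to 0.00276% in the others of that time. The share of the 144 genes lower in LPI and higher in SMIR skin was 0.0296% in the same library, against 0.00592% to 0.00732%. Both shares come from the same library.

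The change at 6 hours differed between SMIR and LPI skin, by the test of the difference in edgeR's quasi-likelihood fit, for 6662 genes. Among the single genes described, the difference was 15.34 on the log2 scale for ENSRNOG00000027478 (adjusted p = 8.16e-06) and 7.14 for ENSRNOG00000053812 (adjusted p = 2.38e-05).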

How the results depend on the processing

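The 8797 genes called in LPI skin ranged from 7182 (gene-length trend as a covariate) to 9109 (DESeq2) over 7 other settings, and from 7808 to 8654 with each library left out in turn. RLE scaling gave 8804, no filter on low counts 8596 and a fit of 0 day and 6 hours alone 8655. With a replicate block 7907 genes passed in LPI skin, 10320 in SMIR skin and 6092 for the difference between them. The numbers pair nothing here, and no single gene described changed its call under the block. SMIR skin gave 5921 calls in place of 10673 with the gene-length trend as a covariate (the cause was not tested), and 9901 to 10338 with a library left out. The 6662 differing genes ranged from 6077 to 6502 with a library left out and from 6092 to 7240 otherwise. Of 587 recomputed values, 558 kept their direction and their side of the threshold, or moved by less than 1.5 times, and 0 reversed. Part of this tally was set by the choice of genes. The 4 sets changed in both skins were chosen by their direction in LPI skin, and their counts in the other direction were 0 throughout. A tested single gene was also counted as kept while its direction and call held, however far its log2 change moved. The tally is therefore no measure of stability. The summed share of muscle-enriched genes rose by 0.0169 to 0.0283 percentage points with a library left out, and its exact permutation p was 0.0286 without any 1 of the 6 hour libraries and 0.0857 to 0.143 without any 1 of the 0 day libraries. The groups did not overlap in any of these, so the p of 3 against 4 libraries says little about stability. ENSRNOG00000028043 at 10 days passed only under DESeq2. The fitted log2 changes of the genes at 0 at 0 day, 15.79 for ENSRNOG00000057443 and 14.81 for ENSRNOG00000028043, were 12.91 and 11.95 at the floor. Depth limits what a count of 0 shows to 0.101 to 0.157 CPM per library.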
